A study of Mus musculus with 9 samples.

Results

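The 10 neutrophil genes described here were S100a8, S100a9, Retnlg, Csf3r, Cxcr2, Mmp8, Mmp9, Ngp, Ltf and Camp, a named set of markers. No threshold on their values was applied, but the genes were chosen with earlier results of these data known. They were 10 of the 53801 genes in the count table, and all 10 passed the low-count filter that left 12538 of the 21890 protein-coding genes for testing. Ngp, Ltf and Camp were treated as the 3 early granule genes and the other 7 as the mature neutrophil genes. CD11b+ cells were sorted by flow cytometry from the tumor-bearing brain hemispheres of male C57BL/6J mice, aged 10 to 12 weeks when the study began. GL261 luc+ tdT+ glioma cells, a mouse line carrying luciferase and a red fluorophore, had been implanted in these mice. Polyadenylated RNA was sequenced in 9 libraries, 2 of CTR mice, which received saline by gavage, 2 of the OAT-1746 group, 2 of the anti-PD-1 group and 3 of mice that received both agents (COMB). OAT-1746, an oral inhibitor of arginase 1 and 2, was given by gavage at 50 mg/kg, 2 times a day from day 1 after implantation, and anti-PD-1, an antibody against the checkpoint receptor PD-1, on days 8, 10, 12 and 14 (2.5 mg/kg each). The methods place cell collection on day 28 and a figure legend on day 21. In anti-PD-1 replicate 2 the treatment is labelled anti-PD-2, and this library was grouped by its title. The methods speak of 2 to 3 biological replicates for each treatment, so the p-values measure the spread between these.

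Between 13048075 and 18796479 read pairs were counted per library. The totals were 17490386 and 17729568 in CTR, 17380045 and 16784406 in OAT-1746, 14356928 and 18796479 in anti-PD-1, and 13048075, 16144518 and 14806017 in COMB. Within each group values are always given in the order of the replicate numbers. Levels are given in CPM, the count divided by the TMM-scaled library size, on which 1 count was worth 0.0564 to 0.0742 CPM. Fold changes are log2 with their standard error (SE) from a fit of all 9 libraries, and calls were made at 0.05 on p-values adjusted over the 12538 genes by the Benjamini-Hochberg method.

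Neutrophils form in the bone marrow and fill their granules in a fixed order as they mature. Genes of the specific granules, among them Ngp, Ltf and Camp, are transcribed in precursor stages and largely shut off before release, whereas receptors and enzymes such as Cxcr2, Mmp8 and Mmp9 are transcribed later. In gliomas neutrophils enter from the blood and are a small part of the CD11b+ cells, most of which are microglia, monocytes and macrophages, and several of these genes are also transcribed in those other myeloid cells.

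The label was checked against markers outside the 10 genes. Ly6g, which encodes the surface protein used to define mouse neutrophils, had 1 and 11 counts in CTR, 4 and 18 in OAT-1746, 7 and 2 in anti-PD-1, and 5, 8 and 5 in COMB. Cxcr1, a further neutrophil chemokine receptor, had 0 counts in 6 libraries and at most 4 in any. Mpo, the myeloperoxidase of primary granules, had 0 to 10 counts and Elane, the neutrophil elastase, 0 to 5. By contrast, P2ry12, a purine receptor of microglia, was at 1376 to 4726 CPM, and the summed level of 9 microglial genes was 12790 to 33430 CPM. These 4 markers thus had at most 18 counts in any library. The wider marker lists were not all that low, as 1 of 6 primary granule genes and 15 of 19 mature neutrophil genes outside the 10 passed the filter. In such bulk samples, fewer neutrophils and less of an RNA per neutrophil cannot be told apart.

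OAT-1746 replicate 2 stood apart from the other libraries. Across the tested genes, which are not independent replicates, its log2 CPM correlated with those of the other 8 libraries at a Pearson's r between 0.911 and 0.956, where the 8 reached 0.960 to 0.989 with each other. Values without it are given below for the fold changes of the 10 genes in OAT-1746 against CTR, for several interactions, for the marker lists and for correlations, and those for lists and correlations are an alternative chosen after seeing the data. The CTR replicates also differed in the neutrophil genes, as all 10 were higher in replicate 2 than in replicate 1.

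Ngp encodes neutrophilic granule protein, a secreted protein of the specific granules related to the cathelicidins. It had 160 and 491 counts in CTR, 472 and 1008 in OAT-1746, 218 and 192 in anti-PD-1, and 439, 543 and 555 in COMB. These were levels of 9.61 and 28.9 CPM in CTR, 27.5 and 57.7 in OAT-1746, 15.2 and 10.8 in anti-PD-1, and 32.6, 35.8 and 39.4 in COMB. The 3 COMB libraries lay above all CTR and anti-PD-1 libraries, and OAT-1746 replicate 2 was the highest of all. The OAT-1746 and CTR groups overlapped, since CTR replicate 2 exceeded OAT-1746 replicate 1. Group means were 19.3 ± 13.6 CPM in CTR (SD, n = 2), 42.6 ± 21.4 in OAT-1746 (n = 2), 13 ± 3.09 in anti-PD-1 (n = 2) and 35.9 ± 3.39 in COMB (n = 3).

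Ltf encodes lactoferrin, an iron-binding protein of the specific granules. Its counts were 96 and 299 in CTR, 322 and 520 in OAT-1746, 147 and 145 in anti-PD-1, and 274, 279 and 308 in COMB. In CPM this was 5.77 and 17.6 in CTR, 18.7 and 29.8 in OAT-1746, 10.2 and 8.17 in anti-PD-1, and 20.3, 18.4 and 21.8 in COMB. Both groups that received OAT-1746 lay above both other groups without overlap, although CTR replicate 2 came within 1 CPM of the lowest of them. Camp encodes the cathelicidin precursor, which is cut to an antimicrobial peptide. It was counted 40 and 109 times in CTR, 84 and 173 in OAT-1746, 54 and 53 in anti-PD-1, and 109, 149 and 178 in COMB. Camp levels were 2.40 and 6.41 CPM in CTR, 4.89 and 9.90 in OAT-1746, 3.76 and 2.99 in anti-PD-1, and 8.08, 9.83 and 12.6 in COMB. The COMB libraries again lay above every CTR and anti-PD-1 library, and anti-PD-1 held the lowest group mean of all 3 early granule genes.

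The 3 early granule genes lie on chromosome 9 (build GRCm38). Camp (ENSMUSG00000038357) is at chr9:109847379-109849617 on the minus strand, Ngp (ENSMUSG00000032484) at chr9:110419747-110423012 on the plus strand and Ltf (ENSMUSG00000032496) at chr9:111019271-111042767 on the plus strand. Together they span 1195.4 kb, with 17 other tested genes between them. The median log2 fold change of those 17 genes against CTR was 0.09 for OAT-1746, −0.04 for anti-PD-1 and −0.11 for COMB, and −0.15 in COMB against anti-PD-1.

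Since the granule genes and S100a8 and S100a9 were high and low in the same libraries, the stretches before their starts were compared. RefSeq promoters (build GRCm38.p6) were found for 9 of the 10 genes, all but Mmp9, and the 250 bases before each RefSeq start were searched on both strands for TTGCNNAA, a C/EBP-type motif, and GAGGAA, a PU.1-type motif. C/EBP factors and PU.1 are transcription factors of granulocyte development. Of 32851 promoters, 3142 (9.56%) held the first motif, 7639 (23.3%) the second and 681 (2.07%) both. Of the 9 genes, 5 held the first (S100a9, Retnlg, Mmp8, Ngp and Ltf) and 5 the second (S100a8, Csf3r, Cxcr2, Mmp8 and Ltf). Ngp held TTGCNNAA at 2 places, 138 to 131 and 11 to 4 bases before the RefSeq start, Ltf held it at 75 to 68 bases, and the window of Camp held neither motif. S100a8 held only the second motif and Mmp8 held both, so the motifs did not follow which genes were high together. A part of the motifs in the levels was not tested. The sequences below are shown for the 3 granule genes, the S100a8 and S100a9 pair and Mmp8, the gene that differed most from them across libraries, and each ends before the first annotated transcript start. Capitals mark TTGCNNAA or GAGGAA on either strand, a match of letters and not a measured binding site. Left out before the RefSeq start were 61 bases for Ngp, 21 for Ltf, 161 for Camp and 93 for S100a8. The Ngp match at 11 to 4 bases and an S100a8 match at 36 to 31 bases are therefore not shown. The stretches, written 5′ to 3′ on the strand of the gene, were chr9:110419558-110419746 (plus) for Ngp, chr9:111019042-111019270 (plus) for Ltf, chr9:109849618-109849706 (minus) for Camp, chr3:90668821-90668977 (plus) for S100a8, chr3:90695722-90695971 (minus) for S100a9 and chr9:7558179-7558428 (plus) for Mmp8.
Ngp: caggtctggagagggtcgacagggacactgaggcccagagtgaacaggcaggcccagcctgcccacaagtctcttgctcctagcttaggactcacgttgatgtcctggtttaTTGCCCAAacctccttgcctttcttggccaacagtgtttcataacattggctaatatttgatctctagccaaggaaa
Ltf: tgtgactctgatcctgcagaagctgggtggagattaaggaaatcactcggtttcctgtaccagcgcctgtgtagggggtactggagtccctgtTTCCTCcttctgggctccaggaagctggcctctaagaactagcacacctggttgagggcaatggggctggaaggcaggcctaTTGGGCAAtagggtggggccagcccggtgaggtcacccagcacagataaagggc
Camp: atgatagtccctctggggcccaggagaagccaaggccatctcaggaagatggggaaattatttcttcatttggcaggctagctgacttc
S100a8: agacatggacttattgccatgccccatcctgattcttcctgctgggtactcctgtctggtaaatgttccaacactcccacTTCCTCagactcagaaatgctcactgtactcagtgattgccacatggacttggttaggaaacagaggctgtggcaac
S100a9: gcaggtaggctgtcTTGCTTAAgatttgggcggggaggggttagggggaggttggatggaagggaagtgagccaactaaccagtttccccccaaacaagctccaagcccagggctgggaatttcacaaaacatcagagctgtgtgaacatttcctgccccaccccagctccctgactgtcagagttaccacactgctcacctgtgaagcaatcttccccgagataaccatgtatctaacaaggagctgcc
Mmp8: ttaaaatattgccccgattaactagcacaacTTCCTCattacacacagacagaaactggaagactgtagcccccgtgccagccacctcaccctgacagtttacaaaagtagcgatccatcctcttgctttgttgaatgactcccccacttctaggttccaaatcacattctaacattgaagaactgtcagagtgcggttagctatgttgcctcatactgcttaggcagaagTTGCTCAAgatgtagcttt

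S100a8 and S100a9 encode the calcium-binding subunits of calprotectin, an alarmin that signals through TLR4. S100a8 had 209 and 426 counts in CTR, 403 and 703 in OAT-1746, 285 and 278 in anti-PD-1, and 544, 632 and 513 in COMB. Its levels were 12.6 and 25.1 CPM in CTR, 23.5 and 40.2 in OAT-1746, 19.9 and 15.7 in anti-PD-1, and 40.4, 41.7 and 36.4 in COMB. All COMB libraries lay above all CTR and anti-PD-1 libraries, which overlapped each other. S100a9 had 369 and 832 counts in CTR, 781 and 1327 in OAT-1746, 423 and 529 in anti-PD-1, and 790, 1213 and 913 in COMB. The corresponding CPM were 22.2 and 48.9, 45.5 and 75.9, 29.5 and 29.8, and 58.6, 80.05 and 64.7. Here too the COMB libraries stood above those of CTR and anti-PD-1, while OAT-1746 replicate 1 fell below CTR replicate 2 for both genes. S100a8 (ENSMUSG00000056054) is at chr3:90668978-90670035 on the plus strand and S100a9 (ENSMUSG00000056071) at chr3:90692632-90695721 on the minus strand, within 26.7 kb and with 0 tested genes between them. S100a9 had 1.45 to 1.95 counts for each S100a8 count over the 9 libraries.

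The receptors Csf3r and Cxcr2 did not follow that order. Csf3r, the receptor for granulocyte colony-stimulating factor, had 4154 and 5577 counts in CTR, 6558 and 8296 in OAT-1746, 3636 and 4921 in anti-PD-1, and 3632, 3688 and 3583 in COMB. These were 249.5 and 328 CPM in CTR, 382 and 475 in OAT-1746, 253 and 277 in anti-PD-1, and 269, 243 and 254 in COMB. Only the OAT-1746 libraries lay above all others, and the remaining 3 groups overlapped. Cxcr2, the receptor for the chemokines Cxcl1 and Cxcl2, had 37 and 72 counts in CTR, 36 and 70 in OAT-1746, 43 and 36 in anti-PD-1, and 28, 26 and 34 in COMB, or 1.72 to 4.24 CPM. Its groups overlapped in the comparisons with CTR and in COMB against anti-PD-1. Csf3r (ENSMUSG00000028859) is at chr4:126024550-126044440 and Cxcr2 (ENSMUSG00000026180) at chr1:74153989-74161246, both on the plus strand.

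Retnlg encodes resistin-like gamma, a secreted protein of mature neutrophils. It had 180 and 356 counts in CTR, 279 and 276 in OAT-1746, 381 and 176 in anti-PD-1, and 180, 254 and 204 in COMB, or 9.92 to 26.6 CPM. The highest and the lowest of these CPM values were the replicates of anti-PD-1, and no pair of groups was separate. Mmp8 encodes neutrophil collagenase. Its counts were 131 and 307 in CTR, 200 and 224 in OAT-1746, 306 and 346 in anti-PD-1, and 141, 184 and 191 in COMB. In CPM they were 7.87 and 18.1 in CTR, 11.6 and 12.8 in OAT-1746, 21.3 and 19.5 in anti-PD-1, and 10.5, 12.1 and 13.5 in COMB. Both anti-PD-1 libraries were the highest of the 9. Mmp9 encodes gelatinase B. It was counted 99 and 258 times in CTR, 332 and 366 in OAT-1746, 159 and 163 in anti-PD-1, and 194, 181 and 162 in COMB. Mmp9 levels were 5.95 and 15.2 CPM in CTR, 19.3 and 20.9 in OAT-1746, 11.1 and 9.19 in anti-PD-1, and 14.4, 11.9 and 11.5 in COMB. As with Csf3r, the OAT-1746 libraries were the highest. Retnlg (ENSMUSG00000022651) is at chr16:48872621-48874496, Mmp8 (ENSMUSG00000005800) at chr9:7558456-7568485 and Mmp9 (ENSMUSG00000017737) at chr2:164940780-164955850, all on the plus strand, and none of the 10 genes overlaps another annotated gene.

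**Figure D1:**
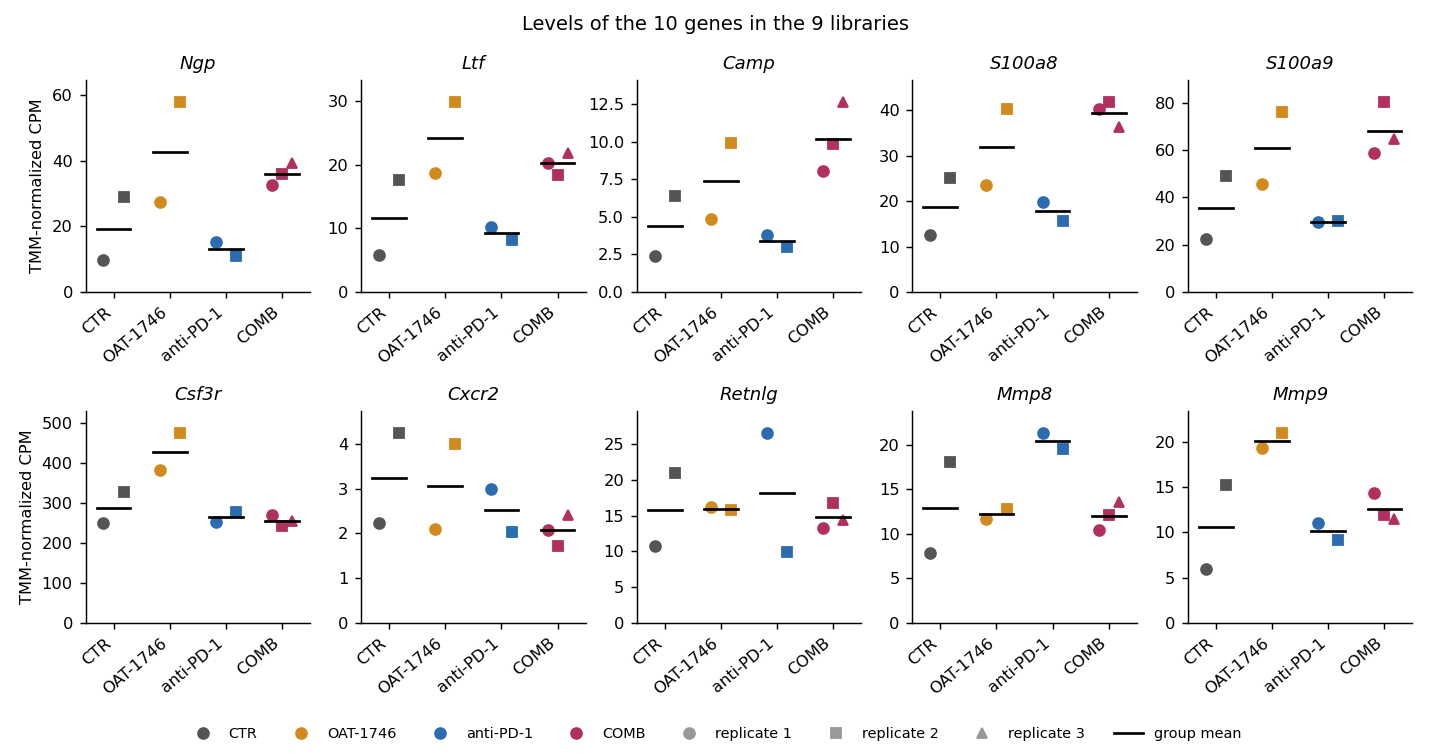
Each panel plots the TMM-normalized CPM of 1 of the 10 genes in the 9 libraries, by treatment group, with a point for each library and a bar for the group mean. Ngp runs from 9.61 to 57.7 CPM and Csf3r from 243 to 475 CPM.

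Levels of different genes were compared per kb of exon. Mean CPM per kb was 96.9 for S100a9, 84.1 for Csf3r, 40.9 for S100a8, 27.1 for Retnlg, 23.4 for Ngp, 8.93 for Camp, 5.84 for Mmp8, 4.86 for Ltf, 3.75 for Mmp9 and 0.867 for Cxcr2. Csf3r thus stood at nearly the level of S100a9, whereas Cxcr2, the receptor more restricted to neutrophils, was the lowest of the 10. The ranges over the 9 libraries of neighbours in this order overlapped, except for Csf3r with S100a8 and Mmp9 with Cxcr2. The ratio of the highest to the lowest library in CPM was 6.00 for Ngp, 5.25 for Camp, 5.16 for Ltf, 3.61 for S100a9, 3.32 for S100a8, 2.71 for Mmp8 and 1.95 for Csf3r. The early granule genes therefore varied most over the 9 libraries and Csf3r least.

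Much of this variation lay within groups. In log2 CPM, CTR replicate 2 exceeded CTR replicate 1 by 1.59 in Ltf, 1.57 in Ngp, 1.37 in Camp, 1.33 in Mmp9, 1.19 in Mmp8, 1.14 in S100a9 and 0.99 in S100a8, against a median of 0.00 over the 12538 genes. The SD within groups was 0.627 log2 units for Ngp, above that of 88.0% of tested genes, and 0.171 for Csf3r, above that of 27.0%. For the other 8 genes it ranked above 72.9% to 85.8% of tested genes. The median over all tested genes was 0.254.

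Comparisons with CTR share the same 2 CTR libraries, and those with anti-PD-1 share its 2 libraries, so their values are given side by side and not as separate evidence. OAT-1746 against CTR asks what the arginase inhibitor alone did. In this comparison Ngp and Ltf, of the early granule genes, and Mmp9, Csf3r and S100a8, of the mature genes, had the smallest p in edgeR's test. Ngp was higher by a log2 fold change of 1.15 ± 0.48 (SE), Ltf by 1.05 ± 0.43, Mmp9 by 0.93 ± 0.36, S100a9 by 0.77 ± 0.36, S100a8 by 0.76 ± 0.34, Camp by 0.74 ± 0.47 and Csf3r by 0.57 ± 0.19. Retnlg, Cxcr2 and Mmp8 had values of 0.01, −0.08 and −0.08. The median was 1.05 for the early granule genes, 0.57 for the mature genes, 0.75 for all 10 and 0.01 for all genes tested.

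In edgeR's quasi-likelihood test of OAT-1746 against CTR, 0 of the 10 were called, as were 0% of all tested genes, and the smallest adjusted p was 0.0898, for Csf3r. At an unadjusted p under 0.05 there were 5 of the 10, all higher, against 16.1% of all tested genes higher at that threshold. In 3 of the 10, Csf3r, Mmp9 and Ltf, the OAT-1746 libraries lay above the CTR libraries without overlap, against 30.8% of all tested genes, so this count was at the background. DESeq2 called 1 of the 10, Csf3r, with a log2 fold change of 0.57 and an adjusted p of 0.0396, in a comparison where it called 15.7% of all tested genes. Without OAT-1746 replicate 2, 0 of the 10 had an unadjusted p under 0.05 in edgeR, against 8.30% of all tested genes higher, and the fold changes were 0.52 for Ngp, 0.69 for Ltf, 0.16 for Camp, 0.33 for S100a8, 0.37 for S100a9, 0.41 for Csf3r, 0.88 for Mmp9, 0.04 for Retnlg, −0.61 for Cxcr2 and −0.14 for Mmp8. In a fit of only the CTR and OAT-1746 libraries 0 of the 10 had an unadjusted p under 0.05 in edgeR, against 12.7% of all tested genes higher and 9.83% lower, and without CTR replicate 1 there were 0 higher, against 10% of all tested genes, and 1 lower, Mmp8 at −0.55, against 7.42%. Without OAT-1746 replicate 1, edgeR called 4 of the 10, S100a8, S100a9, Csf3r and Ngp, with adjusted p of 0.0346, 0.0496, 0.0290 and 0.0316, but it also called 28.2% of all tested genes there, with 1 library left in OAT-1746 and the spread taken from the other groups. With CTR replicate 1 left out, the log2 fold change was 0.57 for Ngp, 0.47 for Ltf and 0.42 for Mmp9. It was then 0.40 for Csf3r, 0.36 for S100a8, 0.32 for S100a9 and 0.22 for Camp. With CTR replicate 2 left out, it was 2.14 for Ngp, 2.06 for Ltf and 1.75 for Mmp9. Csf3r had 0.77, S100a8 1.33, S100a9 1.44 and Camp 1.61 there.

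For anti-PD-1 against CTR, the effect of the antibody alone, the early granule genes were lower and Mmp8 was higher. Ngp had a log2 fold change of −0.57 ± 0.48, Camp −0.39 ± 0.49 and Ltf −0.35 ± 0.44, each about the size of its SE. Mmp8 had 0.65 ± 0.33, and it was the 1 gene of the 10 whose anti-PD-1 libraries lay above the CTR libraries without overlap, against 20.6% of all tested genes. S100a8 had a value of −0.08 and S100a9 of −0.26. The median over the 10 genes was −0.19 and over all tested genes 0.02. In edgeR's quasi-likelihood test 0 of the 10 were called, as were 0% of all tested genes, with a smallest adjusted p of 0.958, and 0 had an unadjusted p under 0.05, against 3.18% of all tested genes higher and 1.94% lower. DESeq2 called 0 of the 10 and 0.112% of all tested genes. The direction turned with the CTR library used, as Ngp had a log2 fold change of −1.15 without CTR replicate 1 and 0.43 without CTR replicate 2. Mmp8 kept its direction, but its size depended on that library, with 0.18 without CTR replicate 1 and 1.37 without CTR replicate 2.

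COMB against CTR asks what both agents together did. S100a8, S100a9 and the 3 early granule genes were higher in every COMB library than in both CTR libraries. The log2 fold change was 1.21 ± 0.44 for Camp, 1.07 ± 0.31 for S100a8, 0.93 ± 0.33 for S100a9, 0.90 ± 0.44 for Ngp and 0.79 ± 0.40 for Ltf. The remaining mature genes had values of 0.25 for Mmp9, −0.10 for Retnlg, −0.11 for Mmp8, −0.18 for Csf3r and −0.64 for Cxcr2. Medians were 0.90 for the early granule genes, −0.10 for the 7 mature genes, 0.52 for all 10 and 0.00 for all tested genes.

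In this comparison 5 of the 10 were higher without overlap, against 12.1% of all tested genes. In edgeR's quasi-likelihood test 3 had an unadjusted p under 0.05, S100a8, S100a9 and Camp, against 3.21% of all tested genes higher at that threshold. At an adjusted p under 0.05 there were 0 of the 10 and 0% of all tested genes, and the smallest adjusted p of the 10 was 0.689, for S100a8. DESeq2 called 0 of the 10, whose smallest adjusted p was 0.149 there, and 0.279% of all tested genes. At an unadjusted p under 0.05 in DESeq2, 5 of the 10 were higher, against 3.73% of all tested genes. Without CTR replicate 1, the log2 fold change was 0.68 for S100a8, 0.34 for Ngp and 0.22 for Ltf, Mmp9 turned to −0.24, and 0 of the 10 were higher at an unadjusted p under 0.05 in edgeR, against 2.66% of all tested genes, and 1, Mmp8 at −0.56, was lower, against 1.60%. That threshold was also lost by S100a9 without COMB replicate 2 and by Camp without COMB replicate 3. Without CTR replicate 2, S100a8 had 1.65, Ngp 1.90 and Ltf 1.80. Camp and S100a9 also had smaller log2 fold changes without CTR replicate 1, of 0.69 and 0.49.

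COMB against anti-PD-1 asks what OAT-1746 added to the antibody, and it does not use the CTR means. The early granule genes and the S100a8 and S100a9 pair were higher in COMB and Mmp8 was lower. Camp was higher by a log2 fold change of 1.60 ± 0.46, Ngp by 1.47 ± 0.46, S100a9 by 1.19 ± 0.34, S100a8 by 1.15 ± 0.32 and Ltf by 1.14 ± 0.41, while Mmp8 had −0.76 ± 0.29. Mmp9 had 0.32, Csf3r −0.05, Cxcr2 −0.28 and Retnlg −0.29. The median was 1.47 for the early granule genes, −0.05 for the mature genes, 0.73 for all 10 and −0.01 for all tested genes.

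Here 6 of the 10 were higher without overlap, against 10% of all tested genes, and 1, Mmp8, was lower without overlap, against 16.4%. In edgeR's quasi-likelihood test 5 were higher at an unadjusted p under 0.05, against 1.98% of all tested genes, and 1 was lower, against 5.26%. At an adjusted p under 0.05 there were again 0 of the 10 and 0% of all genes. The smallest adjusted p was 0.514, for S100a8. It depended on the setting, as DESeq2 gave 0.0671, for S100a8, S100a9 and Camp, a fit of only the 2 groups 0.0512, for Ngp, and the replicate block 1. In any of these 0 of the 10 were called, against 0.375%, 0.0166% and 0% of all tested genes in the same order. These 6 genes kept their direction over 18 alternative settings and left-out libraries, in which Camp lay between 1.37 and 1.76, Ngp between 1.25 and 1.73, S100a9 between 1.06 and 1.29, S100a8 between 1.00 and 1.33, Ltf between 0.98 and 1.30 and Mmp8 between −0.87 and −0.66. Retnlg did not, with values from −0.83 to 0.58. The unadjusted p of Ngp and Ltf in edgeR was no longer under 0.05 without anti-PD-1 replicate 2, and that of Mmp8 without either anti-PD-1 library, COMB replicate 1 or COMB replicate 2, so in 4 of the 5 libraries compared.

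The interaction is the effect of OAT-1746 with anti-PD-1 minus its effect without it, and tests directly whether these effects differ. Of the 10 genes 0 were called in edgeR's quasi-likelihood test, against 0.359% of all tested genes (45, of which 44 were negative). DESeq2 called 0 of the 10, against 8.4% of all tested genes. Csf3r was the 1 gene with an unadjusted p under 0.05, with an interaction of −0.62 ± 0.25 log2 units and an adjusted p of 0.167, where 14.4% of all tested genes were negative at that unadjusted threshold. Without OAT-1746 replicate 2 its value was −0.44, and its unadjusted p in edgeR was no longer under 0.05 there, with the replicate block, or without CTR replicate 1, anti-PD-1 replicate 2, COMB replicate 2 or COMB replicate 3. The 9 microglial genes described further on also had negative interactions, with a median of −0.84 and 3 at an unadjusted p under 0.05, and without OAT-1746 replicate 2 a median of −0.61 and 0 at that threshold, against 9.22% of all tested genes. Their part in the value of Csf3r was not tested. The early granule genes had interactions of 0.85 ± 0.65 for Camp, 0.32 ± 0.65 for Ngp and 0.08 ± 0.58 for Ltf, and without OAT-1746 replicate 2 of 1.46, 0.97 and 0.47. Over all settings and left-out libraries they ran from −0.01 to 1.46 for Camp, −0.67 to 0.97 for Ngp and −0.93 to 0.69 for Ltf, so that each changed sign. Camp was positive at an unadjusted p of 0.0380 in edgeR without CTR replicate 1, against 7.63% of all tested genes positive, and Ltf negative at 0.0468 without CTR replicate 2, against 12.6% negative. In the fit of all 9 libraries an effect of OAT-1746 on these 3 genes that depended on the antibody was not detected, and the SE allow differences of more than 1 log2 unit.

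**Figure D2:**
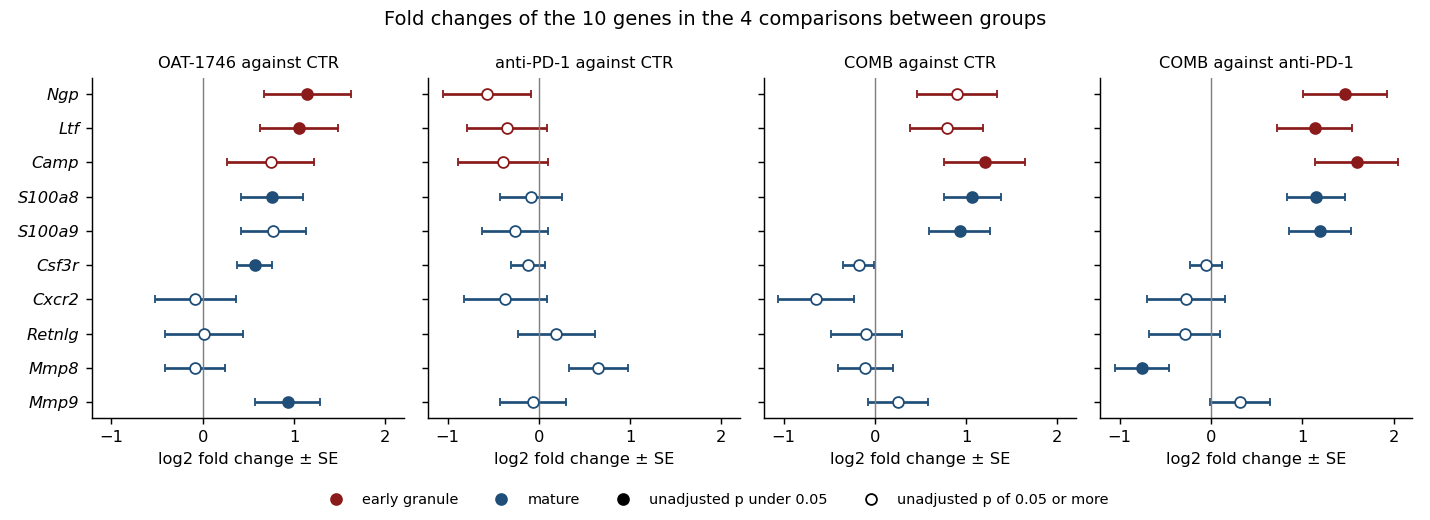
The plot gives the log2 fold change of each of the 10 genes with its SE in the 3 comparisons with CTR and in COMB against anti-PD-1, with filled points for an unadjusted p under 0.05 and colour for early granule or mature genes. In COMB against anti-PD-1, Camp, Ngp, Ltf, S100a8 and S100a9 lie at 1.14 or above and Mmp8 lies at −0.76.

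The balance of early granule against mature transcripts was expressed as the mean log2 CPM of Ngp, Ltf and Camp minus the mean log2 CPM of the 7 mature genes, a description with no test. It was −1.38 and −0.85 in CTR, −0.74 and −0.25 in OAT-1746, −1.41 and −1.42 in anti-PD-1, and −0.35, −0.31 and −0.05 in COMB. On this scale the libraries that received OAT-1746, alone or in COMB, all lay above those that did not, but as a log2 ratio of summed CPM OAT-1746 replicate 1 (−3.29) fell below CTR replicate 2 (−3.12). Group means were −1.11 ± 0.37 in CTR (SD, n = 2), −0.50 ± 0.35 in OAT-1746 (n = 2), −1.41 ± 0.01 in anti-PD-1 (n = 2) and −0.24 ± 0.16 in COMB (n = 3). With OAT-1746 replicate 2 left out, the remaining OAT-1746 library was at −0.74, above both CTR libraries but not by the summed CPM. With Csf3r, Mmp8 and Mmp9 taken out of the mature genes, since other myeloid cells can express them, the means were −0.55 for CTR, 0.13 for OAT-1746, −0.71 for anti-PD-1 and 0.18 for COMB, in which the order of the 4 groups was kept.

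Ratios of raw counts, in which depth cancels, were taken within each library. Ngp had 1.22 and 1.60 counts for each Mmp8 count in CTR, 2.36 and 4.50 in OAT-1746, 0.712 and 0.555 in anti-PD-1, and 3.11, 2.95 and 2.91 in COMB. The anti-PD-1 libraries were thus the only ones with more Mmp8 than Ngp counts. For each Cxcr2 count there were 4.32 and 6.82 Ngp counts in CTR, 13.1 and 14.4 in OAT-1746, 5.07 and 5.33 in anti-PD-1, and 15.7, 20.9 and 16.3 in COMB. Against Camp, its fellow granule gene, Ngp moved less, with 3.12 to 5.83 counts for each Camp count. Against S100a8, a mature gene, it had 0.766 and 1.15 counts in CTR, 1.17 and 1.43 in OAT-1746, 0.765 and 0.691 in anti-PD-1, and 0.807, 0.859 and 1.08 in COMB. By this ratio the COMB libraries lay below CTR replicate 2, which they did not by the ratios to Mmp8 and Cxcr2.

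**Figure D3:**
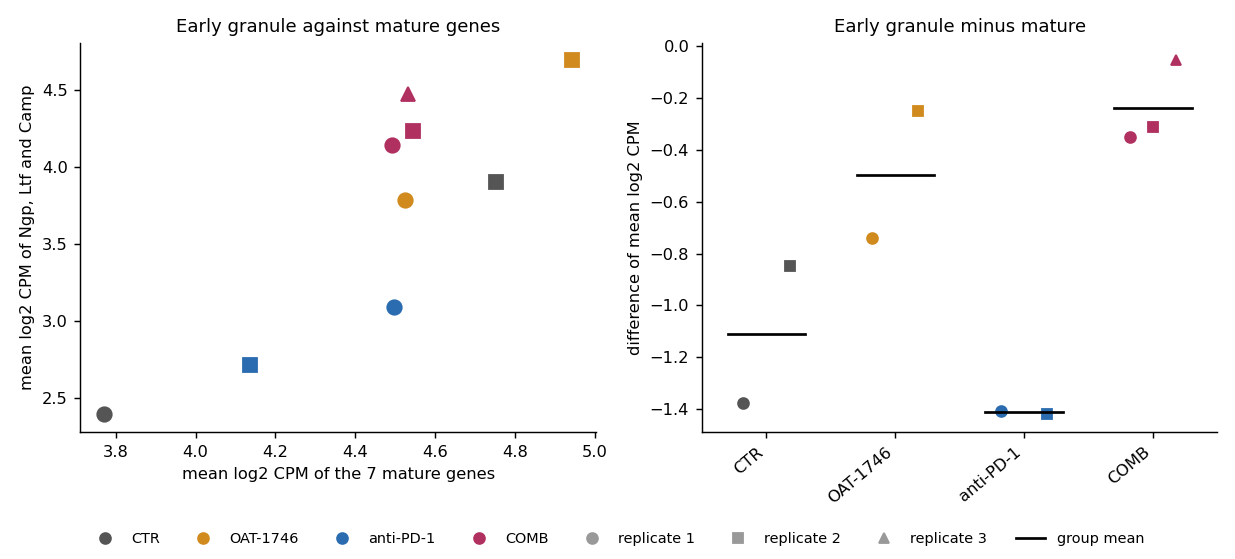
The left panel plots the mean log2 CPM of Ngp, Ltf and Camp against that of the 7 mature genes, with a point for each of the 9 libraries, and the right panel the difference by group, with a bar for the group mean. In the right panel the COMB libraries lie between −0.35 and −0.05 and the anti-PD-1 libraries at −1.42 and −1.41.

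How the 10 genes varied together was measured over the 9 libraries for all 45 pairs, by correlation of log2 CPM with two-sided exact permutation p. The permutation exchanged libraries across the treatment groups, so a group difference that 2 genes share can by itself give a small p. Whether the genes varied together beyond the group differences was not tested. The pairs within Ngp, Ltf, Camp, S100a8 and S100a9 had the highest r, 0.911 to 0.984, and were grouped for that reason. Over all 45 pairs, 13 had a Benjamini-Hochberg adjusted permutation p under 0.05 by Pearson's r and 8 by Spearman's rho. Without the 2 libraries farthest from the median the 10 pairs had r from 0.770, for Ltf and Camp, to 0.975, and without OAT-1746 replicate 2 from 0.908 to 0.980 (n = 8). Ngp and Ltf had r = 0.984 (exact permutation p = 3.86e-05, adjusted p = 0.000903) and rho = 0.917 (exact permutation p = 0.00131, adjusted p = 0.0118), and r = 0.975 without the 2 libraries farthest from the median of Ngp. S100a8 and S100a9 had r = 0.968 (exact permutation p = 7.72e-05, adjusted p = 0.000903) and rho = 0.933 (exact permutation p = 0.00075, adjusted p = 0.0112), and r = 0.941 without the 2 libraries farthest from the median of S100a8. S100a9, placed among the mature genes, was also close to the early granule gene Ngp, with r = 0.956 (exact permutation p = 0.000127, adjusted p = 0.000903), rho = 0.933 (exact permutation p = 0.00075, adjusted p = 0.0112) and r = 0.922 without 2 libraries. S100a8 and S100a9 were thus closer in r to Ngp, Ltf and Camp than to Mmp8, Retnlg and Cxcr2, a difference that was not tested.

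Mmp8 and Ngp had r = −0.0906 (exact permutation p = 0.808, adjusted p = 0.911) and rho = −0.0167 (exact permutation p = 0.982, adjusted p = 1.00), and r = −0.627 without CTR replicate 1 and anti-PD-1 replicate 1. Retnlg and Mmp8 had r = 0.493 (exact permutation p = 0.178, adjusted p = 0.382) and rho = 0.383 (exact permutation p = 0.312, adjusted p = 0.670), and r = 0.924 without the anti-PD-1 libraries, which lay on opposite sides for Retnlg. Csf3r and Mmp9 had r = 0.774 (exact permutation p = 0.0141, adjusted p = 0.0490) and rho = 0.717 (exact permutation p = 0.0369, adjusted p = 0.138), and this relation rested on the OAT-1746 libraries, without which r was 0.485. Without OAT-1746 replicate 2 alone it was 0.697, and r was −0.0673 for Mmp8 and Ngp and 0.496 for Retnlg and Mmp8.

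**Figure D4:**
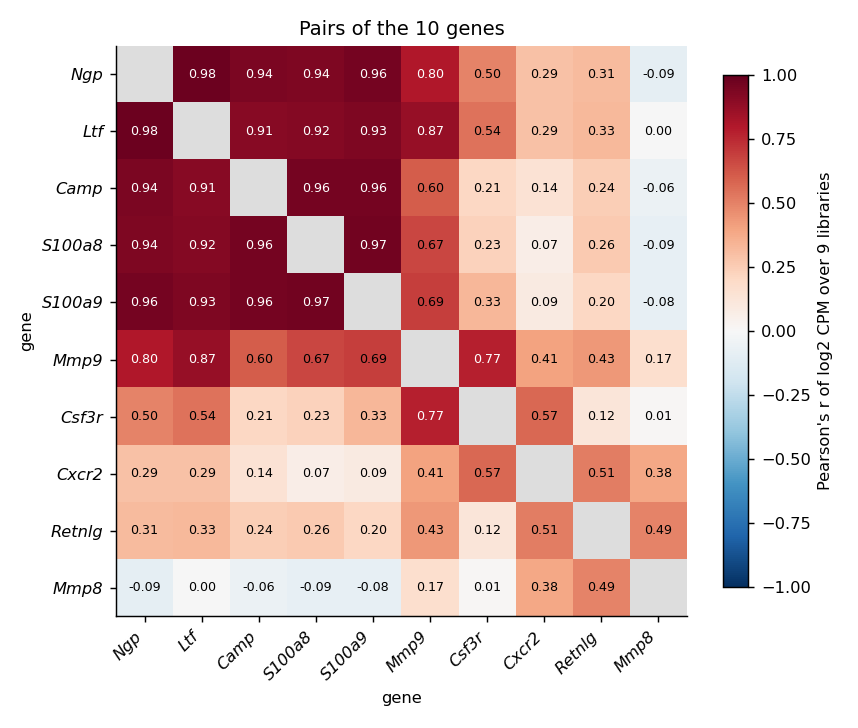
The map gives Pearson's r of log2 CPM over the 9 libraries for each of the 45 pairs of the 10 genes, with colour and printed value for r. The pairs within Ngp, Ltf, Camp, S100a8 and S100a9 lie at 0.911 to 0.984, and Mmp8 with Ngp at −0.0906.

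Among 11417 tested genes with a mean of at least 1 CPM, Lcn2 was the most like the mean of Ngp, Ltf and Camp, with r = 0.978 over the 9 libraries and 0.974 without OAT-1746 replicate 2, a description with no test. Lcn2 encodes lipocalin 2, an iron-siderophore-binding protein of the specific granules. It had 52 and 189 counts in CTR, 148 and 316 in OAT-1746, 80 and 94 in anti-PD-1, and 154, 184 and 172 in COMB. Its log2 fold change in COMB against anti-PD-1 was 1.13 ± 0.48, with an adjusted p of 0.682 in edgeR, and its COMB libraries lay above those of anti-PD-1 and CTR. Since Lcn2 was singled out by its likeness over these same libraries, this order largely follows from that choice and is not separate evidence. The next genes were Naprt, an enzyme of NAD synthesis, at r = 0.966, Rtn3, a reticulon, at 0.946, Sla, a Src-like adaptor, at 0.933 and Tmem260 at 0.931, and without that library at 0.963, 0.932, 0.916 and 0.926. Among the genes most like the mean of S100a8, S100a9, Retnlg and Cxcr2 were Sarm1 (r = 0.983), Rab4a (0.965), Ugt1a7c (0.962) and Tmem115 (0.952), or 0.980, 0.955, 0.964 and 0.941 without that library, none of them a gene of the marker lists. Sarm1 and Rab4a had mean levels of 2.01 and 2.09 CPM.

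Other genes of neutrophil granules were followed as lists, described by counts and medians with no test of the list. Of 6 primary granule genes 1 passed the filter, Prtn3, which encodes proteinase 3, at 4 to 31 counts, and the summed level of the list was 0.63 to 3 CPM. Its log2 fold change against CTR was −0.48 for OAT-1746 (0.24 without replicate 2), 0.91 for anti-PD-1 and 0.49 for COMB. A list named for the specific granules held 13 genes outside the 10, of which 11 were tested. Among the 11 were Cebpe, also listed with the granulocyte transcription factors, and Ltb4r1, also listed with neutrophil recruitment. The list summed to 5080 and 4752 CPM in CTR, 3516 and 1058 in OAT-1746, 4861 and 5573 in anti-PD-1, and 4204, 3369 and 3550 in COMB, most of it Lyz2, the lysozyme that macrophages also make. Higher and lower genes numbered 4 and 7 in OAT-1746 (median −0.56), 9 and 2 in anti-PD-1 (median 0.49) and 5 and 6 in COMB (median −0.03) against CTR, and 4 and 7 in COMB against anti-PD-1 (median −0.50). Without OAT-1746 replicate 2 the direction in OAT-1746 turned, with 6 higher and 5 lower and a median of 0.12. In COMB against CTR 3 of the 11, Lcn2 among them, were higher without overlap, against 12.1% of all tested genes, and 1 was lower, against 15.8%. In COMB against anti-PD-1, 2 were higher without overlap, Lcn2 again among them, against 10%, and 5 were lower, against 16.4%. These genes thus went both ways.

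Of 19 further mature neutrophil genes 15 were tested, among them 5 higher and 10 lower in OAT-1746 (median −0.32, or −0.18 without replicate 2), 8 and 7 in anti-PD-1 (median 0.14) and 8 and 7 in COMB (median 0.10) against CTR. In COMB against anti-PD-1, 6 were higher and 9 lower (median −0.22). The list summed to 298 and 359 CPM in CTR, 391 and 107 in OAT-1746, 482 and 525 in anti-PD-1, and 297, 406 and 425 in COMB. Mxd1, a transcription factor of the Myc network, had a log2 fold change of 1.08 ± 0.45 in anti-PD-1 against CTR and −1.12 ± 0.40 in COMB against anti-PD-1, with adjusted p of 0.951 and 0.606 in edgeR. Mxd1 shared with Mmp8 a highest group mean in anti-PD-1.

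The ligands of Csf3r and Cxcr2 were followed with other genes of neutrophil recruitment. Csf3, the ligand of Csf3r, and Cxcl5, a ligand of Cxcr2, had 0 counts in all 9 libraries, which allows up to 3 counts, or 0.169 to 0.223 CPM, for counting error alone. Cxcl1 had 15 and 40 counts in CTR, 54 and 60 in OAT-1746, 20 and 18 in anti-PD-1, and 7, 8 and 4 in COMB. It was highest in OAT-1746 and lowest in COMB, with a log2 fold change against CTR of −1.86 ± 0.52 and an adjusted p of 0.673 in edgeR. Cxcl2 had 463 and 527 counts in CTR, 614 and 479 in OAT-1746, 325 and 590 in anti-PD-1, and 219, 365 and 419 in COMB. Of 14 genes of neutrophil recruitment 8 were tested, with 4 higher and 4 lower in OAT-1746 (median −0.09, or −0.02 without replicate 2), 3 and 5 in anti-PD-1 (median −0.05), 2 and 6 in COMB (median −0.20) and 2 and 6 in COMB against anti-PD-1 (median −0.18). The list summed to 779 to 1672 CPM, with Il1b, the cytokine interleukin 1 beta, the most abundant on average.

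All 7 granulocyte transcription factors were tested. Of these, 7 were higher in anti-PD-1 (median 0.48), 4 in COMB (median 0.08) and 3 in OAT-1746 (median −0.25, or −0.01 without replicate 2) against CTR, and all 7 were lower in COMB against anti-PD-1 (median −0.34). Cebpb, a C/EBP factor active in neutrophils and macrophages, had a log2 fold change of 1.85 ± 0.37 in anti-PD-1 against CTR, with an adjusted p of 0.951 in edgeR, and the list summed to 1100 to 1949 CPM, with Spi1, the gene of PU.1, the most abundant on average. Another list of 8 held S100 genes other than S100a8 and S100a9 and genes on the receptor side of those 2, such as Tlr4. Of these 8, 3 were higher in OAT-1746 (median −0.40, or −0.01 without replicate 2), 7 in anti-PD-1 (median 0.60) and 7 in COMB (median 0.31) against CTR. In COMB against anti-PD-1, 3 were higher (median −0.16). Tlr4 had 94.0 to 139 CPM and Cd14, its co-receptor and the most abundant of the list, 356 to 467 CPM. The list summed to 593 to 1075 CPM. Of the 4 inhibitors of matrix metalloproteinases 2 were higher in OAT-1746 (median −0.03, or 0.21 without replicate 2), 3 in anti-PD-1 (median 0.43) and 4 in COMB (median 0.90) against CTR, and 3 in COMB against anti-PD-1 (median 0.09). They summed to 339 to 591 CPM, most of it Timp2.

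Markers of the other cells in the gate moved with some of the 10 genes. In OAT-1746 all 9 microglial genes stood above CTR, each with an unadjusted p under 0.05 in edgeR, against 16.1% of all tested genes higher, and without overlap, against 30.8%, with a median of 0.94. Without OAT-1746 replicate 2 all 9 were still higher, 5 of them at an unadjusted p under 0.05 in edgeR, against 8.30% of all tested genes, with a median of 0.75. They summed to 12790 and 20300 CPM in CTR, 26610 and 33430 in OAT-1746, 19090 and 15480 in anti-PD-1, and 23340, 17500 and 16430 in COMB. Csf3r and Mmp9 were highest in those same OAT-1746 libraries, and the part of microglia in their levels was not tested. Microglial genes had medians of 0.04 in anti-PD-1, 0.25 in COMB and 0.16 in COMB against anti-PD-1.

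The 9 monocyte and macrophage genes summed to 1892 and 2746 CPM in CTR, 2792 and 733 in OAT-1746, 3350 and 3193 in anti-PD-1, and 1957, 2790 and 2736 in COMB, with Plac8 the most abundant on average. Of these, 1 was higher and 8 were lower in OAT-1746 (median −0.46), 6 and 3 in anti-PD-1 (median 0.39), 4 and 5 in COMB (median −0.18), and 2 and 7 in COMB against anti-PD-1 (median −0.71). Without OAT-1746 replicate 2 the direction in OAT-1746 turned, with 6 higher and 3 lower and a median of 0.17. Ly6c2, a marker of inflammatory monocytes, had 303 and 692 CPM in CTR, 929 and 39.7 in OAT-1746, 716 and 869 in anti-PD-1, and 352, 372 and 330 in COMB. The list was highest in anti-PD-1, as was Mmp8, and a part of monocytes in the level of Mmp8 was not tested.

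The remaining lists were less close to the 10 genes. Of 8 NK and T cell genes 7 were tested, and they summed to 33.3 and 29.3 CPM in CTR, 46.3 and 15.2 in OAT-1746, 195 and 100 in anti-PD-1, and 41.7, 90.2 and 97.1 in COMB, with Gzma, which encodes granzyme A, the most abundant. All 7 were higher in anti-PD-1 (median 2.25) and in COMB (median 1.41) than in CTR, 4 were higher in OAT-1746 (median 0.05, or 0.62 without replicate 2) and 2 in COMB against anti-PD-1 (median −0.88). All 4 cycling cell genes were lower in OAT-1746 (median −1.95, or −1.24 without replicate 2), in anti-PD-1 (median −0.81) and in COMB (median −0.59) than in CTR, and 2 were higher in COMB than in anti-PD-1 (median 0.13). They summed to 63.9 and 53.8 CPM in CTR, 27.4 and 7.10 in OAT-1746, 21.7 and 51.7 in anti-PD-1, and 36.0, 31.4 and 40.7 in COMB, most of it Top2a.

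Of 6 B cell genes 4 were tested, with medians of −0.33 for OAT-1746 (0.49 without replicate 2), −0.13 for anti-PD-1, 0.35 for COMB and 0.52 for COMB against anti-PD-1, and the list summed to 160 to 348 CPM, most of it Ighm. Of 6 erythroid genes 5 were tested, with medians of 0.80, 0.29, 0.34 and −0.01 in the same order, the first turning to −3.09 without OAT-1746 replicate 2. They summed to 5.47 and 10.4 CPM in CTR, 1.11 and 30.7 in OAT-1746, 18.7 and 0.845 in anti-PD-1, and 10.2, 9.17 and 9.57 in COMB, most of it the globin gene Hbb-bs. Erythroid transcripts were thus highest in OAT-1746 replicate 2, as was Ngp, and their part in its level was not tested. The median of −3.09 rested on OAT-1746 replicate 1 alone. There Hbb-bt and Alas2 had 0 counts and Hba-a1 had 5, against 33 and 53 counts of Hba-a1 in CTR. According to the methods, blood was flushed from the brains by perfusion with buffered saline before the cells were isolated. Of 7 genes of eosinophils, basophils and mast cells 2 were tested, with medians of −0.32 (−3.25 without OAT-1746 replicate 2), 0.88, 0.84 and −0.04, and they summed to 24.1 to 52.5 CPM, most of it Siglecf. The value of −3.25 rested on OAT-1746 replicate 1 alone, where Prg2 had 0 counts, against 22 and 2 in CTR. Siglecf had 514 counts in that library and 489 and 532 in CTR. Of 5 platelet genes 3 were tested, with medians of −0.41 (−0.38 without OAT-1746 replicate 2), 0.47, 0.52 and 0.05, and they summed to 21 to 34.5 CPM, most of it Pf4. No comparison called any gene of the 15 lists in edgeR's test (0 genes).

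**Figure D5:**
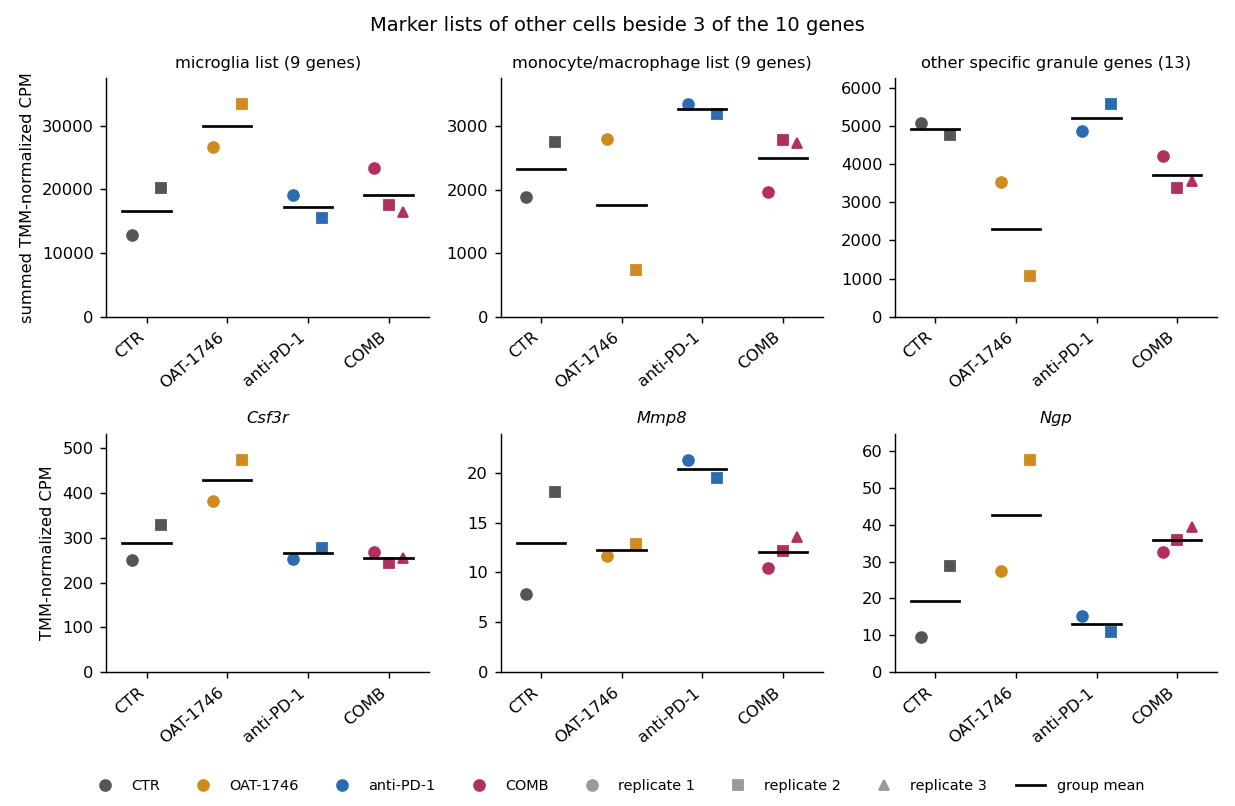
The upper panels plot the summed TMM-normalized CPM of the microglia, monocyte and macrophage, and other specific granule lists in the 9 libraries by group, and the lower panels the CPM of Csf3r, Mmp8 and Ngp, with a point for each library and a bar for the group mean. The microglial sums lie at 26610 and 33430 CPM in OAT-1746 and the monocyte and macrophage sums at 3350 and 3193 CPM in anti-PD-1.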

How the data were processed

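The deposited values were raw counts of read pairs per gene, which the authors made with Trimmomatic, STAR, Picard and HTSeq on mm10 and tested with DESeq2. Their annotation release was not stated. Gene types and positions were taken from GENCODE M21, in which 181 genes of the table had no entry. In R 4.3.3, edgeR 4.0.16 kept protein-coding genes by filterByExpr (minimum count 10), scaled the libraries by TMM and gave each of the 4 groups its own mean in a quasi-likelihood fit, and p-values were adjusted by the Benjamini-Hochberg method at 0.05. Log2 CPM used a prior count of 2. Alternatives were DESeq2 1.42.0, its size factors used in edgeR, library size alone without TMM, a filter of 10 counts in each library or none, all genes of the table, a replicate block, robust estimation, a fit of only the groups compared, and leaving out each replicate. For the difference of early granule and mature genes, another mature set, a ratio of summed CPM and a prior count of 0.5 were also used.

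The 10 genes and the lists were chosen with earlier results of these data known. The lists were primary granule, specific granule, mature neutrophil, neutrophil recruitment, granulocyte transcription factors, S100 and TLR4 partners, metalloproteinase inhibitors, microglia, monocyte and macrophage, NK and T cell, B cell, erythroid, eosinophil with basophil and mast cell, platelet, and cycling cells. From each list the 3 most abundant genes could be named, with a few defining markers and receptor ligands in every case. The steps were tested on simulated data. Promoters were from RefSeq, and Python 3.11.15 with matplotlib 3.10.9 computed pairs and drew the plots.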

Additional observations from a re-analysis of the deposited data

How the results depend on the processing

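The number of the 10 genes called was 0 in every comparison and setting except OAT-1746 against CTR, where DESeq2 called 1 and leaving out each library in turn gave 0 to 4. Over all genes, DESeq2 called 1972 for OAT-1746, 14 for anti-PD-1 and 35 for COMB against CTR, 47 for COMB against anti-PD-1 and 1053 for the interaction. In edgeR, where the fit of all 9 libraries called 45 genes for the interaction and 0 in the other comparisons, leaving out the low-count filter gave 587 for OAT-1746, 2 for COMB, 2 for COMB against anti-PD-1 and 146 for the interaction. Fits of only the groups compared gave 5 genes for COMB against CTR and 2 for COMB against anti-PD-1. The interaction had 24 genes with library size only and 18 among all genes of the table. Leaving out each library gave 0 to 3617 genes for OAT-1746, 0 to 52 for COMB against anti-PD-1 and 0 to 2734 for the interaction. The cause was not tested.

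Of the 10 genes, those with an unadjusted p under 0.05 numbered 0 for OAT-1746 in a fit of only the groups compared, where 12.7% of all genes were higher and 9.83% lower at that threshold. With each library left out they numbered 0 to 8, the 8 being higher without CTR replicate 2, against 13.5% of all genes, while without CTR replicate 1 only Mmp8 was under 0.05, as a lower gene, against 7.42%. For COMB against CTR there were 5 higher with DESeq2, against 3.73%, 5 higher without a low-count filter, against 3.32%, and 1 to 7 with each library left out. The 7 were higher without CTR replicate 2, against 3.56%, and the 1 was Mmp8, lower without CTR replicate 1, against 1.60%. The ranges were 0 to 4 for anti-PD-1, the 4 being lower without CTR replicate 1, against 1.61%, with 2 higher without CTR replicate 2, against 2.74%, and 0 to 4 for the interaction, the 4 being negative without CTR replicate 2, against 12.6%, while without CTR replicate 1 there were 2 positive, S100a9 and Camp, against 7.63%. For COMB against anti-PD-1 there were 4 to 6, and the smallest adjusted p of the 10 ran from 0.0512 in the fit of only the 2 groups to 1 with the replicate block. In this comparison, leaving out anti-PD-1 replicate 2 kept 3 of the 5 higher genes, without Ngp and Ltf, against 1.29% of all genes, and gave Retnlg in place of Mmp8 as the lower gene, against 2.69%. Mmp8 was also no longer under 0.05 without anti-PD-1 replicate 1, COMB replicate 1 or COMB replicate 2.

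The early granule minus mature means without Csf3r, Mmp8 and Mmp9 were −0.55 for CTR, 0.13 for OAT-1746, −0.71 for anti-PD-1 and 0.18 for COMB. As a log2 ratio of summed CPM they were −3.63, −3.01, −3.85 and −2.61, and OAT-1746 replicate 1 then lay below CTR replicate 2.

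With library size only, the log2 fold change turned to 0.01 for Cxcr2 and 0.00 for Mmp8 in OAT-1746 against CTR and to −0.01 for Ltf in the interaction. With the replicate block, Ltf turned to −0.04 in the interaction, where 0 of the 10 genes had an unadjusted p under 0.05, against 4.59% of all genes positive and 7.85% negative, and 0 genes were called. Csf3r was also no longer under 0.05 in the interaction without CTR replicate 1, OAT-1746 replicate 2, anti-PD-1 replicate 2, COMB replicate 2 or COMB replicate 3. Replicate 3 exists only in COMB, so that library took no part in the block fit. Replicates of different groups share a number only and no label pairs them.

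Some directions turned when a library was left out, most often CTR replicate 1 or 2. In OAT-1746 against CTR the log2 fold change lay between −0.61 and 0.45 for Cxcr2, −0.38 and 0.56 for Retnlg, and −0.55 and 0.63 for Mmp8. In anti-PD-1 against CTR it lay between −0.50 and 0.49 for S100a8, −0.72 and 0.41 for S100a9, −0.31 and 0.08 for Csf3r, −0.76 and 0.16 for Cxcr2, −0.67 and 0.74 for Retnlg, −0.58 and 0.76 for Mmp9, −1.15 and 0.43 for Ngp, −0.94 and 0.67 for Ltf, and −0.93 and 0.48 for Camp. In COMB against CTR the ranges were −0.33 to 0.03 for Csf3r, −0.47 to 0.45 for Retnlg, −0.56 to 0.61 for Mmp8 and −0.24 to 1.08 for Mmp9. In COMB against anti-PD-1 they were −0.12 to 0.02 for Csf3r, −0.53 to 0.02 for Cxcr2 and −0.83 to 0.58 for Retnlg. The interaction ranged from −0.18 to 0.85 for S100a8, −0.25 to 0.90 for S100a9, −0.72 to 0.36 for Cxcr2, −0.84 to 0.57 for Retnlg, −0.67 to 0.97 for Ngp, −0.93 to 0.69 for Ltf and −0.01 to 1.46 for Camp.

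In an alternative chosen after seeing the data, leaving out OAT-1746 replicate 2 turned the median of OAT-1746 against CTR to 0.24 for the primary granule list, 0.12 for the specific granule list, 0.21 for the metalloproteinase inhibitors, 0.17 for the monocyte and macrophage list, 0.49 for the B cell list and −3.09 for the erythroid list. It turned r to −0.08 for S100a8 and Csf3r, −0.17 for S100a8 and Cxcr2, −0.17 for S100a9 and Cxcr2, −0.08 for Csf3r and Camp, −0.05 for Cxcr2 and Camp, and 0.03 for Mmp8 and Ltf. These list medians rested on OAT-1746 replicate 1 alone, in which the erythroid genes Hbb-bt and Alas2 had 0 counts.

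The limits are 2 or 3 libraries in each group, CTR replicates that differed in all 10 genes, OAT-1746 replicate 2 standing apart, and low counts of Cxcr2. Whether the antibody label or the day of collection bears on these values was not tested.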
